A study of Mus musculus with 6 samples.

Results

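The 10 genes described here govern the decision of a cell to enter or leave the division cycle in its first gap phase, G1. They are the Cdk inhibitors Cdkn1a, Cdkn1b, Cdkn2c and Cdkn2d, the D-type cyclins Ccnd1, Ccnd2 and Ccnd3, the G1 kinases Cdk4 and Cdk6, and the retinoblastoma gene Rb1. They were taken by symbol from the 47561 gene rows of each library, and each matched 1 row. All 10 passed the filter on low counts. RNA had been sequenced from neutrophils, sorted by flow cytometry from the bone marrow of male wild-type (WT) mice, in 2 groups of 3 libraries. CUMS mice had gone through chronic unpredictable mild stress, a series of changing mild environmental stressors lasting 4 weeks. Control mice carried the same genotype and no stress treatment is given for them. The labels state neither the mouse strain, the age, the surface markers of the sort nor whether animals were pooled, so p-values measure the spread between these libraries, which may be partly technical.

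D-type cyclins bind and activate Cdk4 and Cdk6, and the active kinases phosphorylate the Rb protein, which then releases E2F transcription factors that drive the genes of DNA replication. Inhibitors act against this step: the INK4 proteins encoded by Cdkn2c (p18) and Cdkn2d (p19) bind Cdk4 and Cdk6, and the CIP/KIP proteins encoded by Cdkn1a (p21) and Cdkn1b (p27) bind cyclin-Cdk complexes, including those of Cdk2. In the marrow, neutrophil precursors divide and then mature without further division, so a sort of marrow neutrophils can hold both dividing and arrested cells. The comparison asks whether the lower level of division transcripts in CUMS neutrophils was accompanied by a change in the inhibitors.

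The libraries held 21449842 to 27439390 read-pair equivalents in CUMS and 19711364 to 25870900 in Control. CUMS replicate 1 stood apart from its group: its chi-square per degree of freedom was 15.4 against CUMS replicate 2 and 11.4 against CUMS replicate 3, while these 2 differed by 4.32, and the Control libraries differed from each other by 4.42 to 9.86. All 12 neutrophil markers were detected. Their summed level was 111146 to 138115 CPM (estimated counts scaled to library size) in CUMS and 130364 to 142440 CPM in Control. Of the 12 markers, Mmp9 rose by 0.12 on the log2 scale, and Camp fell by 0.27 and Ltf by 0.11 (edgeR adjusted p = 0.038, 0.046 and 0.044). Of the markers of other cells, 8 of 12 erythroid genes rose, and their sum was 2523 to 3012 CPM in CUMS and 1306 to 1876 CPM in Control. The 10 B cell markers summed to 32.3 to 37.6 CPM in CUMS and 22.0 to 30.3 CPM in Control, with 0 past the test in edgeR. The 7 granulocyte progenitor genes summed to 56.0 to 58.6 CPM in CUMS and 44.2 to 47.6 CPM in Control, mostly from Cebpa and Gfi1. Of these 7, 2 were called higher: Elane (2.13 CPM in CUMS, 0.454 CPM in Control) and Mpo (6.95 CPM in CUMS, 3.42 CPM in Control). The eosinophil markers summed to 51.0 to 59.3 CPM in CUMS and 44.6 to 51.6 CPM in Control (2 of 7 higher), monocyte markers to 662 to 745 CPM in CUMS and 696 to 733 CPM in Control (2 of 8 higher), plasma cell markers to 67.7 to 73.6 CPM in CUMS and 82.9 to 85.8 CPM in Control (1 of 6 tested lower, Tnfrsf17 at 0), T and NK cell markers to 5.01 to 7.68 CPM in CUMS and 5.17 to 7.07 CPM in Control (0 of 4 tested called by edgeR), and stem cell markers to 34.1 to 37.9 CPM in CUMS and 34.5 to 38.3 CPM in Control (0 of 6 tested). Xbp1 made up most of the plasma cell sum (65.9 CPM in CUMS, 80.7 CPM in Control) and was the 1 gene called. Of the 6 plasma cell markers tested, 4 were higher in CUMS and 2 lower. The 2 eosinophil genes that rose were Prg2 (4.82 CPM in CUMS, 0.885 CPM in Control) and Epx (1.49 CPM in CUMS, 0.119 CPM in Control). The part of these other cell types in the results below was not tested. In bulk RNA, fewer cells of a type and less RNA per cell cannot be told apart.

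None of the 4 inhibitors rose in CUMS. The 2 scarce ones, Cdkn1a and Cdkn2c, fell, and the 2 abundant ones, Cdkn1b and Cdkn2d, did not pass the test. No cyclin, kinase or Rb1 passed it either. Thus 2 of the 10 genes were called lower and 0 higher, where 4.5% of the 15778 genes tested were called, 2.14% lower and 2.36% higher, with edgeR's quasi-likelihood test at a Benjamini-Hochberg adjusted p of 0.05. The groups did not overlap for 4 of the 10 genes (Cdkn1a, Cdkn2c, Cdkn2d and Ccnd3, each lower in CUMS), against 22.9% of all genes tested. With a library left out, 1 of the 10 was called without CUMS replicate 1 (4.2% of all genes) or CUMS replicate 2 (2.17%), and 0 without CUMS replicate 3 (1.89%), Control replicate 1 (2.79%), Control replicate 2 (2.11%) or Control replicate 3 (2.09%). It was 2 of the 10 with RLE scaling (4.49% of all genes), without TMM (4.08%) or with values divided by 4 (6.96%), 1 with no filter (1.95%) and 3 with the replicate block (5.9%). The median log2 fold change (CUMS over Control) was -0.06 for the 10 genes and -0.007 for all genes tested.

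Cdkn1a encodes p21, the inhibitor best known as a target of p53, and lies at chr17:29090976-29100727 (GRCm38, plus strand). Its level was 3.15, 2.58 and 2.32 CPM in CUMS replicates 1 to 3, against 4.96, 4.67 and 4.02 CPM in Control replicates 1 to 3. Every CUMS library lay below every Control library. It averaged 2.68 ± 0.422 CPM in CUMS and 4.55 ± 0.483 CPM in Control (SD, n = 3 each). The log2 fold change was -0.76 ± 0.18 (SE; 95% interval -1.15 to -0.37), or 1.70-fold lower, with an edgeR adjusted p of 0.032. Each library held 62.8 to 121 read pairs of this gene. Over 273 bases its exons overlap those of AC167363.2 on the other strand, and without strand the reads of the overlap cannot be assigned. The call was kept without CUMS replicate 1 (edgeR adjusted p = 0.029) and ended without CUMS replicate 2 (0.12), CUMS replicate 3 (0.13), Control replicate 1 (0.11), Control replicate 2 (0.11) or Control replicate 3 (0.058). It also ended with no filter (0.071). The direction was negative in each of these fits.

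Cdkn2c encodes p18, an INK4 inhibitor of Cdk4 and Cdk6, and lies at chr4:109660876-109667189 (GRCm38, minus strand). Its level was 4.58, 5.86 and 5.01 CPM in CUMS replicates 1 to 3, against 8.36, 7.58 and 8.01 CPM in Control replicates 1 to 3. The highest CUMS library lay below the lowest Control library. Means were 5.15 ± 0.65 CPM in CUMS and 7.98 ± 0.394 CPM in Control (SD, n = 3 each), and the log2 fold change was -0.63 ± 0.13 (SE; 95% interval -0.92 to -0.33), or 1.55-fold lower, with an edgeR adjusted p of 0.022. The call held without CUMS replicate 2 (edgeR adjusted p = 0.032) and ended without CUMS replicate 1 (0.061), CUMS replicate 3 (0.10), Control replicate 1 (0.073), Control replicate 2 (0.064) or Control replicate 3 (0.080), again with a negative direction each time. The exact two-sided permutation p was 0.1 for Cdkn1a and for Cdkn2c, the smallest that 6 libraries in groups of 3 can give.

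A promoter window of each of the 2 genes that fell is shown beside that of Cdkn2d, the abundant relative of Cdkn2c that did not pass the test. Each window runs from 250 bases before to 50 bases after an annotated start (RefSeq, GRCm38.p6), 5′ to 3′ on the strand of the gene. There were 10 windows for 7 of the 10 genes, with 2 starts each for Cdkn1a, Cdkn2c and Ccnd3. Only 1 of the 2 windows is shown for Cdkn1a, that with a match to 2 p53 half-sites, and for Cdkn2c, that with GC boxes. The other Cdkn1a window, chr17:29093519-29093818, held 2 GC boxes and 0 matches to the p53 pattern. In the Cdkn1a window, capitals mark the 2 matches to the p53 half-site, and in the Cdkn2c and Cdkn2d windows they mark the GC box GGGCGG on either strand.

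Cdkn1a, chr17:29090729-29091028, plus strand: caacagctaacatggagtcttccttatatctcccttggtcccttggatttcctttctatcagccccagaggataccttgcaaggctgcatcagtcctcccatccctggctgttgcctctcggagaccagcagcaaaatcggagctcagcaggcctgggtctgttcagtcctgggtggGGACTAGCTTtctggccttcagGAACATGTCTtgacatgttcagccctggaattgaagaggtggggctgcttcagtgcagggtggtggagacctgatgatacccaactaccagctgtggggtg
Cdkn2c, chr4:109666707-109667006, minus strand: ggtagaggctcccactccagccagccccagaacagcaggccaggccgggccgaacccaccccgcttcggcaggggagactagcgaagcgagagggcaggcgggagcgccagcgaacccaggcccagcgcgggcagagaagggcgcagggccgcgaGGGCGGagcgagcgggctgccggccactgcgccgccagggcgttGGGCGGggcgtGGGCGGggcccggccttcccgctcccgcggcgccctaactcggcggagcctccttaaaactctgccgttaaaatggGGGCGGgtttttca
Cdkn2d, chr9:21291160-21291459, minus strand: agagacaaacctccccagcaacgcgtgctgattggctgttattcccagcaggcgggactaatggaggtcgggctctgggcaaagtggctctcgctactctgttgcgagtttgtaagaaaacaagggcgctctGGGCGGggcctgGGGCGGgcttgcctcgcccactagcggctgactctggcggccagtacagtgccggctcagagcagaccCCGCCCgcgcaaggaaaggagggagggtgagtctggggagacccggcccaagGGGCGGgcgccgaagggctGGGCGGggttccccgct

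The p53 element, a search added after the sequences were seen, was taken by name as 2 half-sites of 10 bases with up to 13 bases between them. A match to this pattern occurred in the window at the upstream Cdkn1a start, from 73 to 42 bases before it with 12 bases between the half-sites. Matches were in 0.0731% of all 32851 windows and in 1 of the 10 windows of these genes. The 10 bases directly after the second half-site, tgacatgttc, miss the half-site pattern at 1 base, so the search did not match them. Whether the marked pair or this adjoining stretch is bound by p53 was not tested. The GC box occurred in 7 of the 10 windows, 4 times in the Cdkn2c window shown and 5 times in that of Cdkn2d, and in 35.7% of all windows. The E2F site, spelled TTTGGCGC or TTTCGCGC on either strand, was in 0 of the 10 windows and in 0.813% of all. The CHR element TTTGAA of late cell cycle genes was in 0 of the 10 and in 17.9% of all, and the E-box CACGTG, which Myc and Max bind, was in 3 of the 10 (Cdkn2c at its other start, Cdk4 and Cdk6) and in 7.15% of all. E-boxes occurred 4 times in the Cdk4 window. The counts are per gene, so the starts of Cdkn1a and of Cdkn2c cannot be told apart in the levels.

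Cdkn1b encodes p27, which holds cyclin-Cdk complexes inactive in resting cells. Its level was 183, 199 and 183 CPM in CUMS replicates 1 to 3, against 188, 201 and 184 CPM in Control replicates 1 to 3. The groups overlapped. With means of 188 ± 9.15 CPM in CUMS and 191 ± 9.04 CPM in Control (SD, n = 3 each), the log2 fold change was -0.02 ± 0.05 (SE; edgeR adjusted p = 0.91). The 95% interval of -0.13 to 0.09 spans a fold of 0.914 to 1.06, and a fold above 1.06 lies outside it.

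Cdkn2d encodes p19, the other INK4 inhibitor measured here. Its level was 141, 137 and 137 CPM in CUMS replicates 1 to 3, against 156, 145 and 145 CPM in Control replicates 1 to 3. The CUMS libraries lay below the Control libraries by little: the log2 fold change was -0.10 ± 0.046 (SE), with an unadjusted p of 0.041 and an edgeR adjusted p of 0.27. Its 95% interval of -0.20 to -0.01 lies below 0.

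**Figure D1:**
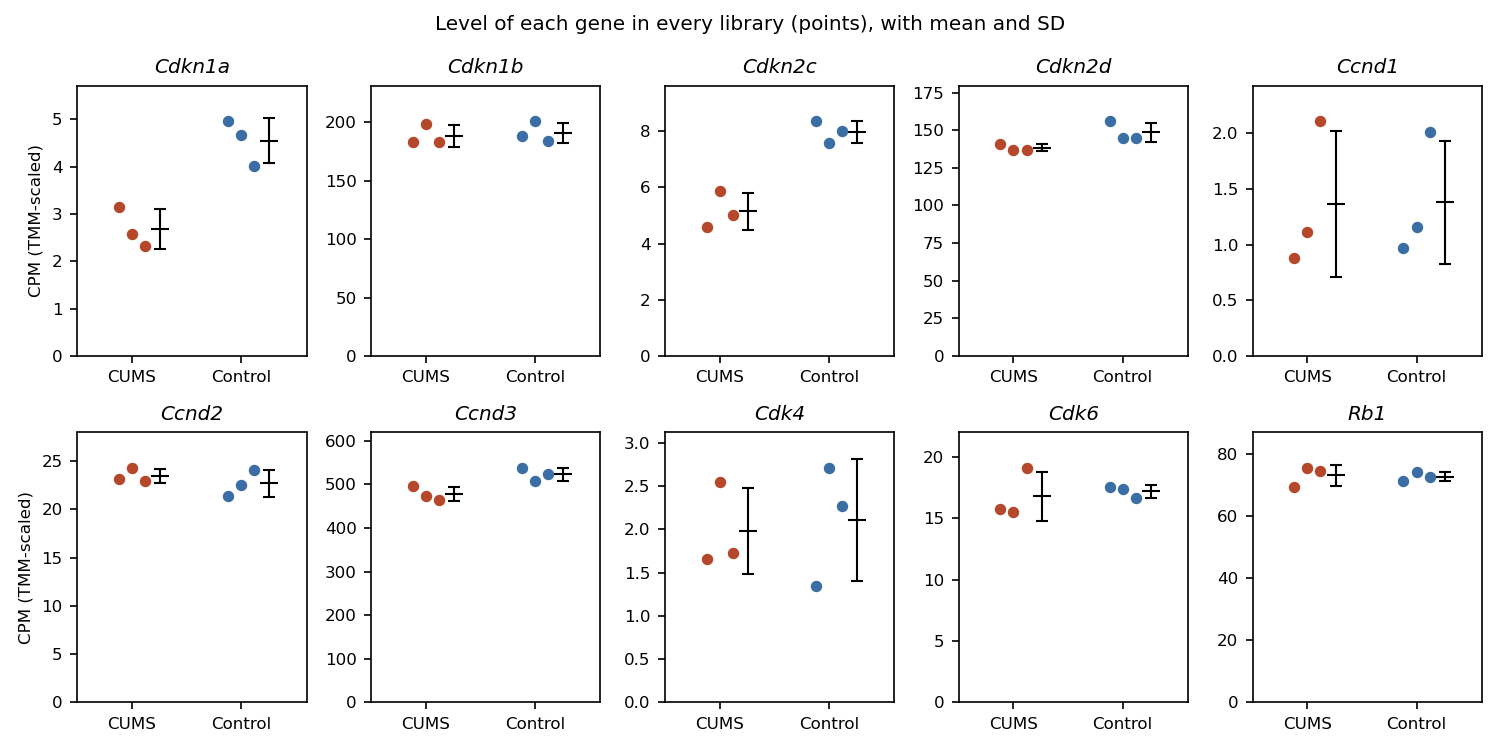
Level of each of the 10 genes in TMM-scaled CPM (vertical axis, from 0) in every CUMS (left) and Control (right) library, with the mean and SD beside the points. The groups are apart for Cdkn1a, Cdkn2c, Cdkn2d and Ccnd3, as for Cdkn1a (2.32 to 3.15 CPM in CUMS, 4.02 to 4.96 CPM in Control) and Cdkn2c (4.58 to 5.86 CPM in CUMS, 7.58 to 8.36 CPM in Control).

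The other inhibitors of the 2 families were at or near 0. Cdkn2a, the gene of p16 and p19Arf, was listed at 0 in all 6 libraries. Cdkn1c, which encodes p57, was at 0 to 0.037 CPM in CUMS and 0 to 0.153 CPM in Control, and Cdkn2b, which encodes p15, at 0 to 0.111 CPM in CUMS and 0.0471 to 0.290 CPM in Control. None of these 3 passed the filter, so they were not tested.

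The D cyclins are the activating partners of Cdk4 and Cdk6, and Ccnd3 was by far the most abundant of them. Its level was 495, 474 and 463 CPM in CUMS replicates 1 to 3, against 538, 507 and 523 CPM in Control replicates 1 to 3. The groups did not overlap. Means were 477 ± 16.3 CPM in CUMS and 523 ± 15.9 CPM in Control (SD, n = 3 each). On the log2 scale the fold change of -0.13 ± 0.041 (SE; 95% interval -0.22 to -0.04) missed the threshold in edgeR (adjusted p = 0.11). It passed with DESeq2 (adjusted p = 0.028), where 9.81% of genes were called, and with limma-voom and quality weights (0.040), where 6.04% were called. Ccnd3 lies on chromosome 17 at 47505051 to 47599691 (GRCm38, plus strand), and its exons overlap those of Bysl on the other strand, a gene at 9.21 CPM in CUMS and 11.0 CPM in Control.

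Ccnd2, the cyclin most often linked to growth factor signals in blood cells, was at 23.1, 24.3 and 22.9 CPM in CUMS replicates 1 to 3, against 21.4, 22.5 and 24.1 CPM in Control replicates 1 to 3. The groups overlapped, and the log2 fold change was 0.05 ± 0.074 (SE; edgeR adjusted p = 0.83; 95% interval -0.11 to 0.21). Exons of Gm43126 and 9330179D12Rik overlap those of Ccnd2 on the other strand. Ccnd1, cyclin D1, was the scarcest of the 10 genes per length, at 0.879, 1.11 and 2.11 CPM in CUMS replicates 1 to 3, against 0.969, 1.16 and 2.01 CPM in Control replicates 1 to 3. Replicate 3 was the highest library in both groups. With 18.5 to 57.0 read pairs a library the 95% interval of its log2 fold change ran from -0.85 to 0.82, or a fold of 0.555 to 1.77. Its exons overlap those of LTO1 on the other strand, a more abundant gene at 18.9 CPM in CUMS and 17.2 CPM in Control, and without strand the reads of the overlap cannot be assigned.

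Cdk4 and Cdk6 encode the kinases that the D cyclins activate. Cdk6 was at 15.7, 15.5 and 19.1 CPM in CUMS replicates 1 to 3, against 17.5, 17.4 and 16.6 CPM in Control replicates 1 to 3, with a log2 fold change of -0.04 ± 0.098 (SE; edgeR adjusted p = 0.92; 95% interval -0.25 to 0.18). CUMS replicate 3 was above the Control libraries and the other 2 CUMS libraries below them. Exons of Gm17590 overlap those of Cdk6 on the other strand. Cdk4 was scarce, at 1.66, 2.55 and 1.73 CPM in CUMS replicates 1 to 3, against 1.34, 2.71 and 2.27 CPM in Control replicates 1 to 3. These overlapping values rest on 26.2 to 71.0 read pairs a library, and the 95% interval of the log2 fold change was -0.72 to 0.54. Cdk4 exons overlap those of Tspan31 on the other strand, which had a like level (1.39 CPM in CUMS, 1.73 CPM in Control), so the Cdk4 level is uncertain.

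Rb1, the substrate of these kinases and the brake they release, was at 69.3, 75.5 and 74.3 CPM in CUMS replicates 1 to 3, against 71.1, 74.0 and 72.5 CPM in Control replicates 1 to 3. The groups overlapped, and the log2 fold change was 0.01 ± 0.051 (SE; edgeR adjusted p = 0.96), with a 95% interval of a fold of 0.931 to 1.09. Rb1 spans 73183673 to 73325822 on chromosome 14 (GRCm38, minus strand), and exons of Lpar6 (6.36 CPM in CUMS, 6.74 CPM in Control) and Rcbtb2 overlap its exons on the other strand.

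**Figure D2:**
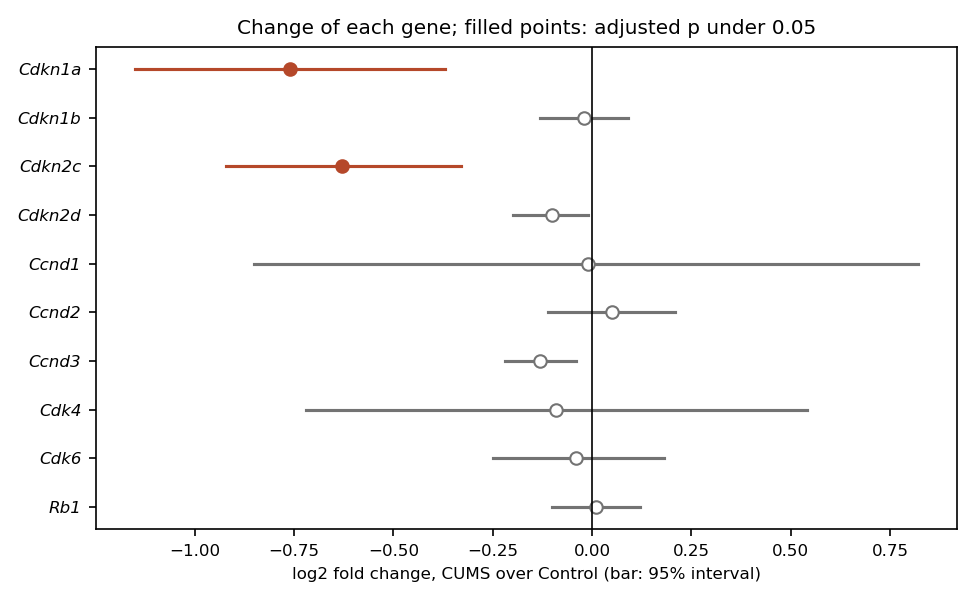
Log2 fold change of each gene, CUMS over Control (horizontal axis), with its 95% interval as a bar. The filled points, Cdkn1a at -0.76 and Cdkn2c at -0.63, have an adjusted p under 0.05, and the intervals of Cdkn1b, Rb1 and Ccnd2 are narrow around 0 while those of Ccnd1 and Cdk4 are wide.

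Set per kilobase of annotated exon (GENCODE M21), the 10 genes covered a wide range of levels, and the same inhibitors and cyclins carried the total in both groups. Cdkn2d came first at 90.9 ± 4.55 CPM per kb (SD over 6 libraries), Ccnd3 second at 57.0 ± 3.29, then Cdkn1b at 41.7 ± 1.81 and Rb1 at 12.1 ± 0.383 CPM per kb. The ranges of these 4 over the libraries did not overlap. Ccnd2 (2.45 ± 0.114 CPM per kb) and Cdkn2c (2.45 ± 0.604) could not be ordered: Cdkn2c was at 1.92 ± 0.242 CPM per kb in CUMS, below Ccnd2, and at 2.97 ± 0.147 CPM per kb in Control, above it. Both lay above Cdk6 (1.21 ± 0.0952) in every library. The range of Cdkn1a (1.02 ± 0.31) overlapped with that of Cdk6 above it and that of Cdk4 (0.629 ± 0.168) below it, and Ccnd1 (0.292 ± 0.115) lay below Cdk4 in each of the 6 libraries although their ranges overlapped.

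**Figure D3:**
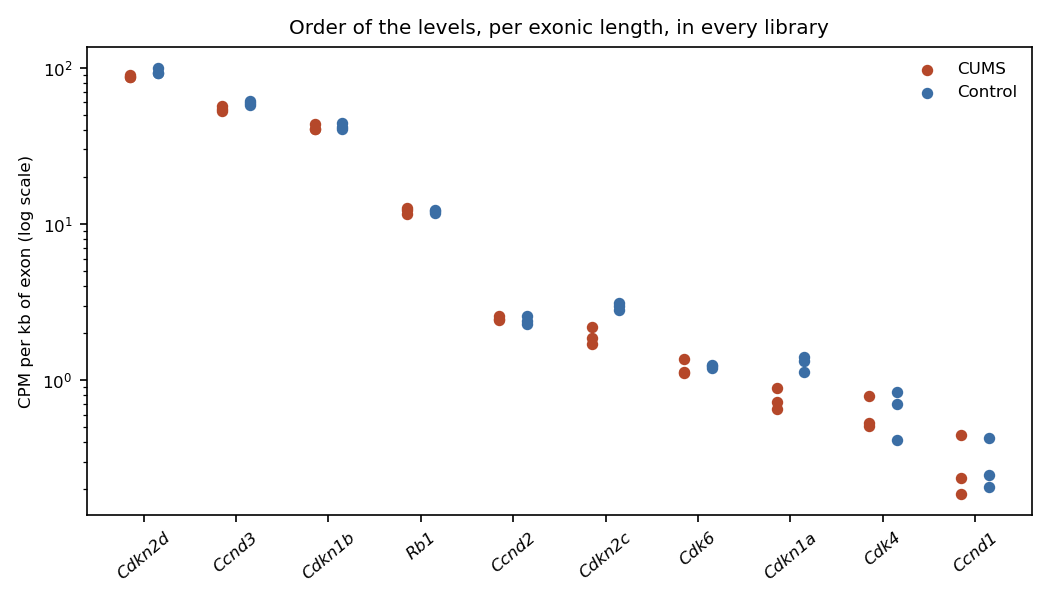
Level per kilobase of exon (vertical log axis) of the 10 genes in every CUMS and Control library, in order of the mean over the 6 libraries. The levels run from 90.9 CPM per kb for Cdkn2d to 0.292 CPM per kb for Ccnd1, and the groups stand furthest apart at Cdkn2c and Cdkn1a, where CUMS lies below Control.

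The inhibitors that fell were a small share of the inhibitor total on the same scale per length. Cdkn2d made up 66.6% ± 1.33 of the 4 inhibitors in CUMS and 67.1% ± 1.43 in Control, and Cdkn1b 31.4% ± 1.21 in CUMS and 29.9% ± 1.51 in Control (SD, n = 3 each). Cdkn2c made up 1.46% ± 0.173 in CUMS and 2.12% ± 0.0914 in Control, and Cdkn1a 0.573% ± 0.0869 in CUMS and 0.910% ± 0.0715 in Control. Ccnd3 made up 95.1% ± 0.362 of the D cyclins in CUMS and 95.7% ± 0.45 in Control, and Ccnd2 4.35% ± 0.195 in CUMS and 3.87% ± 0.28 in Control. The summed inhibitors stood at 132, 133 and 129.6 CPM per kb in CUMS replicates 1 to 3 and at 145, 140.1 and 136 CPM per kb in Control replicates 1 to 3. Per length, the ratio of the inhibitors to the D cyclins overlapped between the groups, at 2.24 to 2.35 in CUMS and 2.18 to 2.32 in Control. Which of the sums was larger depended on length. Without length the inhibitors summed to 327 to 344 CPM in CUMS and 340.3 to 358 CPM in Control. The D cyclins then summed to more, 488 to 519 CPM in CUMS and 530.3 to 561 CPM in Control.

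The summed D cyclins stood at 59.0, 56.8 and 55.6 CPM per kb in CUMS replicates 1 to 3, against 63.8, 60.4 and 62.6 CPM per kb in Control replicates 1 to 3. Like the summed inhibitors, they were lower in CUMS without overlap on this scale per length. Without length the D cyclin sums stayed apart (488 to 519 CPM in CUMS, 530.3 to 561 CPM in Control). The inhibitor sums then overlapped (327 to 344 CPM in CUMS, 340.3 to 358 CPM in Control). The mitosis genes, a list chosen with earlier results known, were lower by more. Ratios to them therefore stood higher in CUMS, which restates the larger fall of the mitosis genes. Of 20 mitosis genes, 17 fell and 0 rose, with a median log2 fold change of -0.70, and 19 were lower in CUMS. The number called lower was 12 to 15 with a library left out, and 15 with RLE scaling, without TMM or with no filter. Their summed level was 69.4, 71.5 and 71.1 CPM per kb in CUMS replicates 1 to 3, against 101, 101 and 106 CPM per kb in Control replicates 1 to 3. The summed inhibitors were 1.86 ± 0.04 times this sum in CUMS and 1.37 ± 0.0767 times in Control (SD, n = 3 each), without overlap. The summed D cyclins were 0.809 ± 0.0366 times the mitosis sum in CUMS and 0.609 ± 0.0228 times in Control, also without overlap. For the 2 inhibitors that fell the ratio overlapped: Cdkn1a and Cdkn2c together were 0.0378 ± 0.00263 of the mitosis sum in CUMS and 0.0416 ± 0.003 in Control. Among the mitosis genes, Plk1, a mitotic kinase, fell by 0.84 ± 0.12 on the log2 scale (SE), Cdc20, an activator of the anaphase complex, by 0.82 ± 0.11, Nusap1, a spindle protein, by 0.80 ± 0.094 and Birc5, which encodes survivin, by 0.80 ± 0.15 (edgeR adjusted p = 0.0024, 0.002, 0.00059 and 0.013). The Birc5 call ended without CUMS replicate 3 (0.058) or Control replicate 3 (0.068). In contrast, Kif23, a motor of cytokinesis, had 73.2 ± 1.39 CPM in CUMS and 70.6 ± 2.14 CPM in Control (edgeR adjusted p = 0.67).

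**Figure D4:**
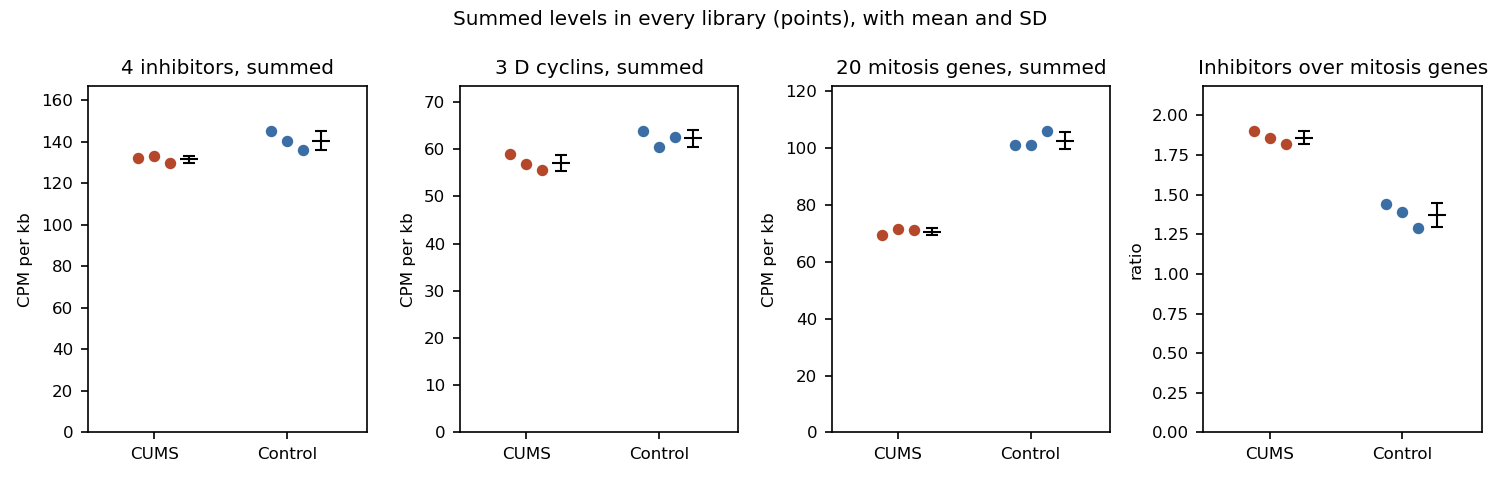
Summed level per kilobase of exon of the 4 inhibitors, the 3 D cyclins and 20 mitosis genes in every CUMS (left) and Control (right) library, and the ratio of the first to the last, all with mean and SD and axes from 0. The mitosis sum is 69.4 to 71.5 CPM per kb in CUMS and 101 to 106 CPM per kb in Control, and the ratio is 1.82 to 1.90 in CUMS and 1.29 to 1.44 in Control.

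Genes that act before, with or after these 10 were listed by role, and 86 of 93 passed the filter: 11 fell and 3 rose (median log2 fold change -0.02). The number that fell was 7 without CUMS replicate 2, Control replicate 2 or Control replicate 3. Of 15 genes of the later cyclins, their kinases and activators, 5 fell and 0 rose. Cdk1, the mitotic kinase, was at 6.46, 7.03 and 7.07 CPM in CUMS replicates 1 to 3, against 12.7, 13.8 and 12.6 CPM in Control replicates 1 to 3, and fell by 0.93 ± 0.11 on the log2 scale (SE; edgeR adjusted p = 0.00048). Ccnb2 and Ccna2, cyclins of mitosis and of S phase, fell by 0.77 ± 0.12 and 0.69 ± 0.088. Cdk2, the partner of cyclins E and A and a target of p21 and p27, was at 81.1 ± 1.44 CPM in CUMS and 97.3 ± 2.23 CPM in Control, and fell by 0.26 ± 0.046 (edgeR adjusted p = 0.0075; 0.057 without CUMS replicate 3). Cdc25a, the phosphatase that activates Cdk2, fell by 0.42 ± 0.091, a call that ended without CUMS replicate 2 (0.10), CUMS replicate 3 (0.10), Control replicate 2 (0.099) or Control replicate 3 (0.093), or with no filter (0.054). The cyclin E genes were scarce and did not pass: Ccne1 was at 1.16 ± 0.133 CPM in CUMS and 1.02 ± 0.433 CPM in Control, and Ccne2 at 1.03 ± 0.54 CPM in CUMS and 2.03 ± 0.315 CPM in Control (edgeR adjusted p = 0.87 and 0.16). Without CUMS replicate 3, Ccne2 was called lower (0.038).

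Of 18 genes of the pocket proteins, E2F factors and the DREAM complex, which represses cell cycle genes in resting cells, 2 fell and 0 rose. Foxm1, the activator of mitotic genes, was at 11.1 ± 0.74 CPM in CUMS and 17.1 ± 0.952 CPM in Control, with a log2 fold change of -0.62 ± 0.095 (SE; edgeR adjusted p = 0.0037). E2f8, a repressing E2F, fell by 0.38 ± 0.084 (edgeR adjusted p = 0.025), a call that ended without CUMS replicate 1 (0.052), CUMS replicate 2 (0.072), Control replicate 2 (0.12) or Control replicate 3 (0.11), or with no filter (0.066). The Rb1 relatives did not pass: Rbl2, which encodes p130, was at 94.5 ± 1.73 CPM in CUMS and 93.1 ± 8.65 CPM in Control (edgeR adjusted p = 0.93), and Rbl1, which encodes p107, at 14.7 ± 0.764 CPM in CUMS and 18.0 ± 1.11 CPM in Control (edgeR adjusted p = 0.097). E2f2, an activating E2F, was at 326 ± 11.8 CPM in CUMS and 324 ± 3.84 CPM in Control (edgeR adjusted p = 0.96).

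Of 20 replication genes that E2F factors drive, 19 were tested, 4 fell and 0 rose, with a median log2 fold change of -0.32. Rrm2 and Rrm1, the subunits of ribonucleotide reductase, fell by 0.68 ± 0.094 and 0.54 ± 0.095 on the log2 scale (SE; edgeR adjusted p = 0.002 and 0.0076). Uhrf1, which maintains DNA methylation at replication, fell by 0.55 ± 0.12, a call that ended when any library other than Control replicate 2 was left out (adjusted p 0.066 to 0.097), or with no filter (0.051). Gins1, a helicase subunit, was at 0.0449 to 0.0832 CPM in CUMS and 0.306 to 0.613 CPM in Control, below the floor of 12 estimated counts in each CUMS library, and its call ended without any single library (0.075 to 0.21), without TMM scaling (0.051), with no filter (0.076), with voom (0.085) and with the replicate block (0.094).

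Of 14 genes tested for the turnover of cyclins and inhibitors, 1 rose and 1 fell. Fbxo31, a ubiquitin ligase subunit that directs cyclin D1 to degradation, was at 81.2 ± 4.45 CPM in CUMS and 59.7 ± 2.08 CPM in Control, with a log2 fold change of 0.44 ± 0.056 (SE; edgeR adjusted p = 0.0011), and was called without any single library (0.0022 to 0.011). Cks1b, the cofactor that p27 degradation needs, was at 2.52 ± 0.375 CPM in CUMS and 4.82 ± 0.672 CPM in Control, and fell by 0.94 ± 0.18 (edgeR adjusted p = 0.013). That call ended without CUMS replicate 2 (0.067), CUMS replicate 3 (0.062) or Control replicate 3 (0.068). Skp2, the ligase subunit that marks p27, was at 0.414 ± 0.332 CPM in CUMS and 0.868 ± 0.194 CPM in Control, with a log2 fold change of -1.08 (edgeR adjusted p = 0.35). Without CUMS replicate 1, which held 0.796 CPM against 0.189 and 0.259 CPM in the other CUMS libraries, the log2 fold change was -1.95 (0.052).

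Of 15 genes tested among the Myc, Mxd, Foxo, Stat5 and related factors, Max, the partner of Myc and of the Mxd repressors, rose by 0.16 ± 0.041 on the log2 scale, and Mxd1, a repressor of differentiating cells, fell by 0.13 ± 0.031 (SE; edgeR adjusted p = 0.048 and 0.032). The Max call ended when any library other than Control replicate 1 was left out (0.089 to 0.17), and that of Mxd1 without CUMS replicate 2 (0.088), CUMS replicate 3 (0.15), Control replicate 2 (0.17) or Control replicate 3 (0.11). With no filter neither was called (0.071 for Max, 0.098 for Mxd1), nor was Mxd1 without TMM scaling (0.075). Of 6 antiproliferative genes, the BTG and TOB family and Ccng2, Btg2, an antiproliferative gene and p53 target, was at 513 ± 12.2 CPM in CUMS and 639 ± 19.6 CPM in Control, with a log2 fold change of -0.32 ± 0.039 (edgeR adjusted p = 0.0009), and 0 rose.

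Of 18 genes tested in the p53 pathway, to which Cdkn1a responds, 1 rose and 1 fell, with a median log2 fold change of 0.03. Trp53inp1 was at 564 ± 21.0 CPM in CUMS and 457 ± 27.4 CPM in Control, and rose by 0.30 ± 0.049 on the log2 scale (SE; edgeR adjusted p = 0.0049). Gadd45a, a growth arrest gene, was at 151 ± 7.65 CPM in CUMS and 179 ± 7.26 CPM in Control, and fell by 0.25 ± 0.05 (edgeR adjusted p = 0.016), a call that ended without CUMS replicate 2 (0.087), CUMS replicate 3 (0.083), Control replicate 1 (0.058) or Control replicate 2 (0.072). Trp53 itself was at 11.7 ± 1.23 CPM in CUMS and 10.6 ± 0.438 CPM in Control, and Mdm2, which p53 induces and which degrades p53, at 154 ± 4.89 CPM in CUMS and 154 ± 2.28 CPM in Control (edgeR adjusted p = 0.63 and 0.99).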

How the data were processed

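In each library the authors deposited a single unnormalized whole number for every gene, used here as an estimated count. A read pair was worth about 4 of these, since values of 4, 8, 12 and 16 were 1.89, 1.66, 1.41 and 1.38 times as frequent as the values next to them. Per the submitters' processing notes the build was mm10 and the tools included HISAT2 2.1 and featureCounts 1.6.4, together with cutadapt 1.16.5, bcl2fastq 2.19 and DESeq2 2.11.40.6. Whether strand was kept is not given in the sources used here.

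Rows were named by symbol, and where rows shared one the row with the highest total kept it and the others were tested under their own IDs. The values entered edgeR 4.0.16 (R 4.3.3) whole, with filterByExpr, TMM scaling, the quasi-likelihood test on group and Benjamini-Hochberg adjustment over 15778 genes. The floor was 3 read pairs (12 estimated counts) a library, and floors cover counting error only. Loci and exon lengths come from GENCODE M21 (GRCm38), promoters from RefSeq (GRCm38.p6).

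All 10 genes were named. In the pathway and division lists, genes past the threshold were named, at least the 4 with the largest change. Ccne1, Ccne2, Rbl1, Rbl2, E2f2, Skp2, Kif23, Trp53 and Mdm2 were chosen after their values were seen. The p53 element was likewise added later. The genes and lists were chosen with earlier results of these data known. Of the 15 turnover genes, Skp1a was not matched, since the files list it as Skp1. Alternatives were RLE or no scaling, no filter, DESeq2 1.42.0, limma 3.58.1, values divided by 4, a replicate block and each library left out.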

Additional observations from a re-analysis of the deposited data

How the results depend on the processing

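The count of all genes called was 710 and became 1150 with DESeq2, 462 with no filter and 305 to 697 with a library left out. Of the 10 genes, 2 were called, 1 with no filter, 0 to 1 with a library left out and 3 with DESeq2, voom or the replicate block. With no filter Cdkn1a kept its log2 fold change of -0.76 and lost its call (adjusted p = 0.071). With a library left out it ran from -0.89 to -0.67, and that of Cdkn2c from -0.73 to -0.55. Ccnd3 passed with DESeq2 (-0.12, adjusted p = 0.028), voom (-0.13, 0.040) and the replicate block (-0.13, 0.043), and its adjusted p over all 13 alternatives was 0.028 to 0.39. The cause was not tested. Genes near 0 changed sign with a library left out: Cdkn1b (-0.06 to 0.02), Ccnd1 (-0.47 to 0.36, and 0.04 with voom), Cdk4 (-0.33 to 0.14), Cdk6 (-0.14 to 0.02), Rb1 (-0.01 to 0.05), Rbl2 (-0.05 to 0.07), E2f2 (-0.02 to 0.03), Ccne1 (-0.12 to 0.48) and Mdm2 (-0.02 to 0.02), the last also with RLE, no TMM or no filter (0.0) and with DESeq2 or voom (0.01). Pathway genes called lower numbered 17 with DESeq2 and 7 to 11 with a library left out, and those called higher 6 with DESeq2 and 2 to 3 with a library left out. Replication genes called lower numbered 2 with no filter and 2 to 3 with a library left out. Without length, Cdkn2d made up 41.7% and Cdkn1b 55.3% of the inhibitors, so that their order turned, and Cdk6 89.2% of the 2 kinases. Ccnd3 (477 CPM in CUMS, 523 CPM in Control) then lay above Cdkn2d (138 CPM in CUMS, 148 CPM in Control). Libraries with the same replicate number shared deviations weakly (correlations of 0.101, 0.041 and 0.016), so the numbers were not taken as pairs, and not every library correlated best with its own number. The replicate block moved the count of all genes called to 931. Depth limits Ccnd1, Cdk4 and Cdkn1a most, at 18.5 to 121 read pairs a library.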

Other observations

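Several of the 10 genes had their lowest and highest values at the same replicate numbers in both groups, among them the 2 scarcest per length. Ccnd1 was at 0.879, 1.11 and 2.11 CPM in CUMS replicates 1 to 3 and at 0.969, 1.16 and 2.01 CPM in Control replicates 1 to 3. Cdk4 was lowest in replicate 1 and highest in replicate 2 of both groups (1.66 and 2.55 CPM in CUMS, 1.34 and 2.71 CPM in Control). Cdkn1a was highest in replicate 1 and lowest in replicate 3 of both groups. Rb1 was lowest in replicate 1 and highest in replicate 2 of both. Cdkn2d was highest in replicate 1 of both groups. Its replicates 2 and 3 were nearly equal, at 86.8 and 86.9 CPM per kb in CUMS and 91.8 and 91.9 CPM per kb in Control. Cdkn1b was highest in replicate 2 of both groups (199 CPM in CUMS, 201 CPM in Control). Its other CUMS libraries were both at 183 CPM, and Control was lowest in replicate 3 (184 CPM). Cdkn2c, Ccnd2, Ccnd3 and Cdk6 did not have both their lowest and highest values at the same replicate numbers. The labels do not say that a replicate number marks a shared batch or day.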
